A study of Mus musculus with 2 samples.

Results

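The genes described here are the 2 chains of the interleukin-6 receptor, Il6ra and Il6st, and 4 genes of the suppressor of cytokine signalling (SOCS) family, Socs1, Socs2, Socs3 and Cish. They are 6 of 21827 protein-coding genes of the mouse. The set is defined by name and not by a measured value, although earlier results of these data were known when it was chosen. Each was followed over its gene body and 25 kb to either side, in naive resting CD8 T cells. The assay was DNase-seq, in which nuclei are cut with DNase I and cut ends are sequenced, so that open chromatin gives many cuts. There was 1 group of 2 libraries, prepared from male, adult, virgin B6CASTF1/J mice, bred by crossing different inbred mouse strains and aged 2 months. The labels give no treatment and number the libraries biological replicates 2 and 3. The donor label is shared and the biosample labels differ, and whether the cells came from separate animals is not stated. No comparison between conditions can be made, and no test was run.

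Interleukin-6 binds the chain encoded by Il6ra, and the pair then engages gp130, the signal-transducing chain encoded by Il6st, which is shared with the other cytokines of the family. Receptor-bound JAK kinases phosphorylate STAT factors, above all STAT3, which move to the nucleus and switch on target genes. SOCS proteins are among those targets: they bind receptors or JAKs, block the kinases or mark them for degradation, and so close a negative feedback loop. SOCS1 is known as a brake on interferon and gamma-chain cytokine signalling in T cells, SOCS3 binds gp130 itself, and CIS (from Cish) and SOCS2 are known mainly as feedback inhibitors downstream of STAT5. Naive T cells carry both chains of the receptor on their surface.

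Each library came with 2 peak lists. The shorter one, called stricter here, holds peaks with a false discovery rate (FDR) of at most 0.001 at some position, and the longer, permissive one allows up to 0.05. The stricter lists numbered 38223 peaks (replicate 2) and 17061 (replicate 3). Peak signal is the authors' value, whose scaling the labels do not state. Signals below 2 were whole multiples of 1 step in each library, and the step of replicate 3 was 6.05 times that of replicate 2. If 1 step is 1 tag and both signals are scaled to a common total, replicate 2 was the deeper library by that factor. The 95% Poisson intervals given below take 1 step as 1 tag and cover counting error only. Since depth may differ in this way, a site that lacks a call in replicate 3 is not shown to be closed there. At marker promoters, stricter peaks in both libraries were found at 4 of 10 CD8 T cell genes and 2 of 8 naive T cell genes, shares no higher than the 40.8% of all protein-coding genes, and at no gene of the CD4 T, B, NK, myeloid and erythroid lists. Cd8a had only a permissive peak and Tcf7 had none, while Klrd1 of the NK list and Itgam of the myeloid list had a stricter peak in replicate 2 alone. In a bulk sample, a weaker peak cannot be told apart from a peak that is open in fewer of the cells.

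Regions called in both libraries lay mostly at Socs1 and Socs3, while the peaks of replicate 2, taken by themselves, were spread more evenly. Of 13 regions called in the stricter lists of both libraries, 5 lay at Socs1, 5 at Socs3 (1 of them the promoter of its neighbour Pgs1), 2 at Il6ra and 1 at Il6st, and there was none at Socs2 or Cish. A region in both lists was present at 4 of the 6 loci, beside 63.9% of all protein-coding loci. Socs1 and Socs3 each had more such regions than 94.9% of protein-coding loci, whose median was 1, although both genes are short (3.30 kb and 3.97 kb against a median gene length of 17380 bp). Il6ra and Il6st span 49.14 kb and 46.02 kb. Before the overlap was taken, replicate 2 had 36 stricter peaks in the 6 loci and replicate 3 had 13. Of the 36, 18 were in promoter windows, counting those of the neighbours Pgs1 and Mapkapk3. The same share over all stricter peaks of replicate 2 was not computed. By locus, replicate 2 had 7 each at Socs1, Socs3 and Cish, 6 each at Il6ra and Il6st, and 3 at Socs2. These peaks covered 1730 bp at Socs3, 1525 bp at Socs1, 1411 bp at Cish, 1387 bp at Il6ra, 944 bp at Il6st and 367 bp at Socs2. All 13 peaks of replicate 3 overlapped a peak of replicate 2. Such overlap was common: over the genome the stricter lists shared 15930 regions, beside 17061 stricter peaks of replicate 3.

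**Figure D1:**
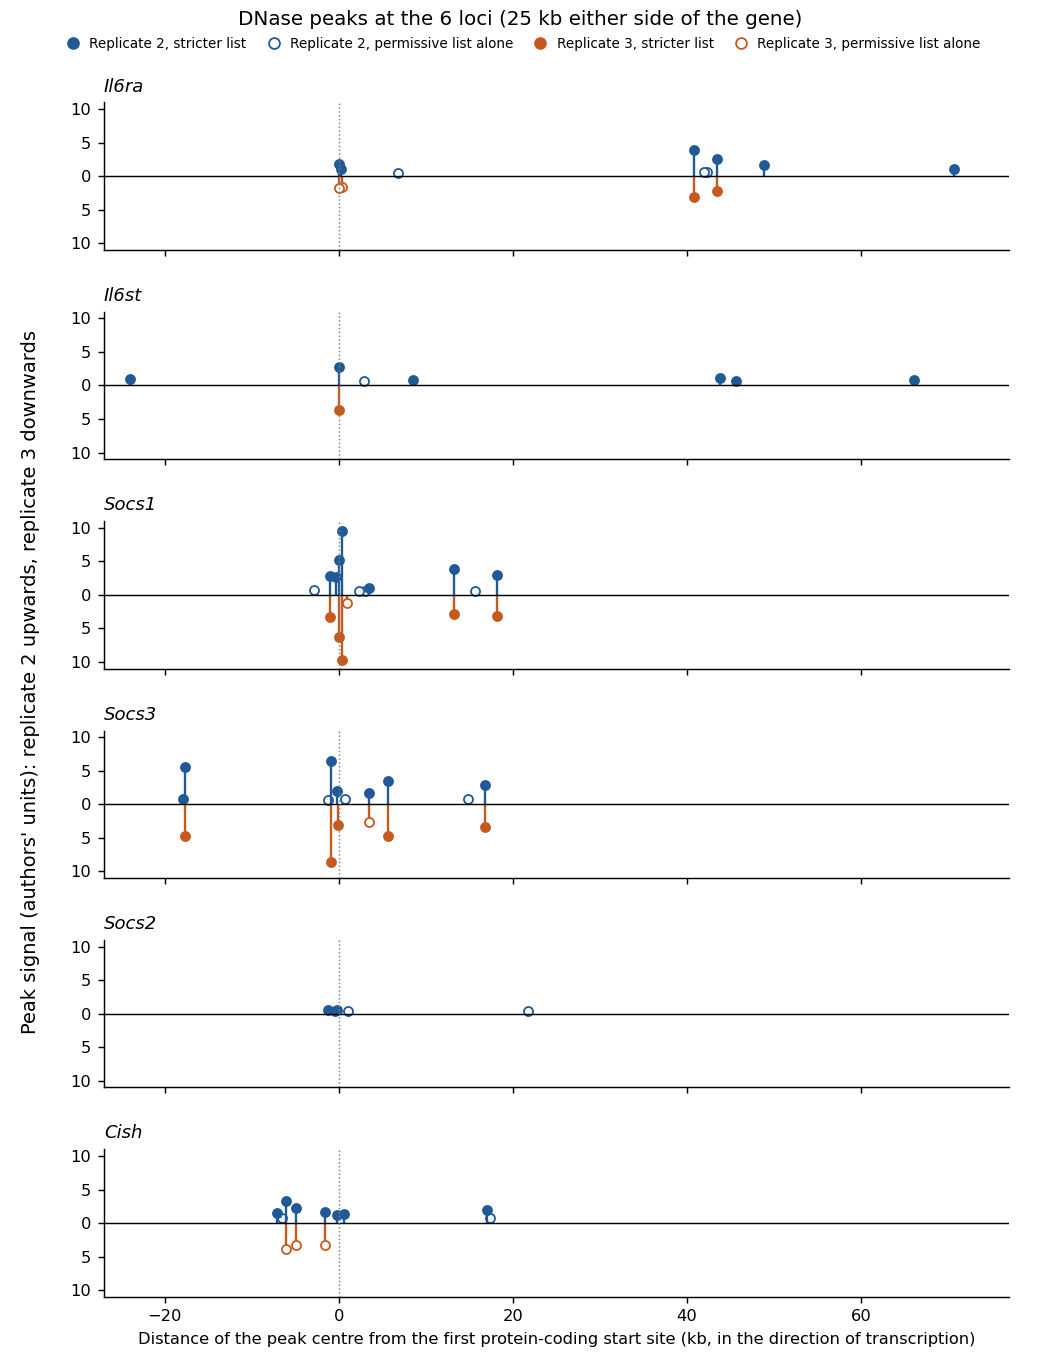
Peak signal (authors' units, vertical axis) against distance of the peak centre from the first protein-coding start site (kb, horizontal axis), with replicate 2 drawn upwards and replicate 3 downwards, filled points for the stricter list and open points for peaks of the permissive list alone. Socs1 and Socs3 carry 5 peaks each in replicate 3, Il6ra 2 and Il6st 1, while Cish has 3 open points in replicate 3 and Socs2 has nothing there.

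At promoters, taken as 1000 bp either side of any protein-coding start site of a gene, all 6 members had a stricter peak in replicate 2 (50.5% of all protein-coding genes did) and 3 of 6 had one in replicate 3 (40.9% did). The same 3, Il6st, Socs1 and Socs3, had a promoter peak in both (40.8% of genes did). In replicate 2 the strongest promoter peak measured 9.55 at Socs1, 6.51 at Socs3, 2.70 at Il6st, 1.74 at Il6ra, 1.34 at Cish and 0.537 at Socs2. The median over 11017 genes with such a peak was 3.75, so only Socs1 and Socs3 lay above it. Counting intervals of neighbours in that order overlapped only for Il6ra (1.52 to 1.98) and Cish (1.15 to 1.55). In replicate 3, Socs1 at 9.67 (8.41 to 11.1) and Socs3 at 8.58 (7.41 to 9.89) were not separated by counting error. Il6st, at 3.61 (2.87 to 4.50), lay below both and below the median of 4.65 over 8922 genes. With 2 libraries, the spread between them is the sole measure of reproducibility: the order Socs1, Socs3, Il6st was the same in both.

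Il6ra lies on chromosome 3 (minus strand, chr3:89864059-89913196 on mm10), and its strongest peak lay inside the gene and not at its start site. This peak was in an intron 40.7 kb downstream of the nearest start site, with a signal of 3.92 (3.60 to 4.27) in replicate 2 and 3.16 (2.46 to 3.99) in replicate 3. A second region, chr3:89869621-89869880, overlapped an untranslated exon 43.4 kb downstream and measured 2.60 and 2.21. In both regions replicate 3 gave the lower value, with counting intervals that overlapped. The promoter itself held adjacent stricter peaks in replicate 2, of 1.74 across the start site and 1.10 over exon and intron 261 bp downstream. Replicate 3 listed both in the permissive list alone, at 1.81 and 1.67, although positions there reached an FDR of 0.000536 and 0.000532, below 0.001. So an FDR below 0.001 did not always put a peak in the stricter list. Replicate 2 also had peaks with no counterpart in either list of replicate 3. One, of 1.69, lay in the last exon and one, of 1.09, in an intron of the neighbouring gene She, which encodes an SH2 domain adaptor. The intronic peak is printed because it was the strongest of the locus in both libraries. Its 260 bases, chr3:89872301-89872560, are given on the minus strand from the RefSeq GRCm38.p6 reference, as are all sequences here, with the 5 footprints of replicate 2 (short stretches protected from cutting) in capitals. One of those footprints, extended by 5 bp, holds the ETS letters CCGGAA.
Il6ra intronic peak: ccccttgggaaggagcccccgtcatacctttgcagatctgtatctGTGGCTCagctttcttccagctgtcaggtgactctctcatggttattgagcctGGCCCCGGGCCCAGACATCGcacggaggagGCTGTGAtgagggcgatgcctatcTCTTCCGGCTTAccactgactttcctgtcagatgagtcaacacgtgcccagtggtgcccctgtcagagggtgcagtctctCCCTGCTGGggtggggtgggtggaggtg

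Il6st, on chromosome 13 (plus strand, chr13:112464070-112510086), had the opposite layout, with 1 region in both libraries and that at the start site. This peak, chr13:112463921-112464160, measured 2.70 (2.43 to 2.99) in replicate 2 and 3.61 (2.87 to 4.50) in replicate 3, which placed it at percentiles 36.5 and 34.1 of promoter peaks in the respective libraries. It was therefore a promoter of below-median signal in both. The other 5 stricter peaks of replicate 2 measured 0.657 to 1.13, and none was in a list of replicate 3. The strongest 3 of them were a peak of 1.13 in an untranslated exon, a peak of 1.04 24.0 kb upstream, and a peak of 0.865 over a coding exon of the neighbour Il31ra, which encodes a cytokine receptor chain related to gp130. A peak of 0.761 lay 58 bp upstream of another of the 6 start sites annotated for Il6st. Bases of the promoter peak upstream of the first exon, chr13:112463921-112464069 on the plus strand, are shown because this is the sole site of the locus seen in both libraries. Capitals mark footprints of replicate 2. The stretch has 1 footprint of replicate 3 and holds matches to ETS (CCGGAA), KLF/SP (GGGCGG) and NFY (CCAAT).
Il6st promoter: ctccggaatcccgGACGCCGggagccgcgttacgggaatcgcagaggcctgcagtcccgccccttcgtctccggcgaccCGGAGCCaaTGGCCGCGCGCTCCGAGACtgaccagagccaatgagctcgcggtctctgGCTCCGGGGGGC

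Socs1, on chromosome 16 (minus strand, chr16:10782240-10785536), had the strongest site of all 6 loci in each library. It lay in the first intron, 345 bp downstream of the start site, at chr16:10785081-10785300, and measured 9.55 (9.03 to 10.1) in replicate 2 and 9.67 (8.41 to 11.1) in replicate 3. These values agree within counting error, and stood at percentiles 98.0 and 97.1 of all stricter peaks. The adjoining region over the start site, chr16:10785381-10785660, measured 5.16 and 6.28, and a region 995 bp upstream measured 2.84 and 3.34. Replicate 2 had a further peak of 2.60 between them, chr16:10785741-10786040. Replicate 3 has no peak there in either list, yet 295 of the 300 bp carry a listed FDR, which is 1.05e-05 at its lowest, so the missing call is not a missing signal. A pair of regions lay downstream of the gene, outside any gene, at 13.2 kb (3.90 and 2.85) and 18.2 kb (3.01 and 3.16). The first of these had a ratio of replicate 3 to replicate 2 at percentile 6.16 of all shared regions, with counting intervals of 3.57 to 4.25 and 2.19 to 3.64. A peak of 0.977 just past the gene's end was in replicate 2 alone. The first sequence is the first-intron peak, whole, and the second the peak at 13.2 kb, chr16:10772181-10772420, both on the minus strand. Capitals mark footprints of replicate 2. The second is shown because it holds the single footprint of all 6 loci that overlaps a STAT motif.
Socs1 first intron: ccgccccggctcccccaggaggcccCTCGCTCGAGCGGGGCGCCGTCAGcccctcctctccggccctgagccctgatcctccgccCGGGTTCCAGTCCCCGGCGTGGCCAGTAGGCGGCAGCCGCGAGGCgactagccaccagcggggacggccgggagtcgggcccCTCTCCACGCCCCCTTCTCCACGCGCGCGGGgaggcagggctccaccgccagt
Socs1 downstream: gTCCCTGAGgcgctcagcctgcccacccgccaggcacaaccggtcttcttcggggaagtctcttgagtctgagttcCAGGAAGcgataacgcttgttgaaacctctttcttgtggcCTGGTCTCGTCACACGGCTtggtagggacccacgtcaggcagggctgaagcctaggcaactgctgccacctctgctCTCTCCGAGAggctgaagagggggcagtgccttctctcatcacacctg

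In the first-intron sequence 100 of 220 bases lay in 3 footprints of replicate 2, and all 4 footprints of replicate 3 overlapped them. Its central 200 bp had a G and C content of 77.5%, at percentile 98.1 of replicate 2 peaks. Over the whole Socs1 locus there were 28 footprints in replicate 2 and 10 in replicate 3, and 9 of those 10 overlapped one of replicate 2. How often footprints of the libraries overlapped over the genome was not computed.

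Socs3, on chromosome 11 (minus strand, chr11:117966079-117970047), also had 5 regions in both libraries. Its strongest lay 885 bp upstream of the protein-coding start site of the GENCODE basic annotation. The position is chr11:117969961-117970180, where GENCODE annotates the start of a non-coding transcript of the gene. With the full GENCODE and RefSeq transcripts, 171 bases of this peak are untranslated exon, so its place upstream depends on the annotation. It is the strongest region of the locus in each library. It measured 6.51 (6.08 to 6.95) in replicate 2 and 8.58 (7.41 to 9.89) in replicate 3, intervals that did not overlap. The region over the start site was weaker, at 1.96 (1.73 to 2.21) and 3.16 (2.46 to 3.99), and its ratio stood at percentile 91.3 of shared regions. Downstream of the gene lay regions at 5.6 kb (3.50 and 4.79) and 16.8 kb (2.91 and 3.43), and a peak at 3.5 kb (1.73) that replicate 3 listed only in its permissive list, at 2.62. The fifth shared region, of 5.50 and 4.79, was the promoter of the neighbouring gene Pgs1, which encodes an enzyme of cardiolipin synthesis. A peak of 0.768 in an intron of Pgs1 was in replicate 2 alone. At 4 of the 5 regions replicate 3 gave the higher value, and the Pgs1 promoter was the exception. A higher value in replicate 3 was also the more frequent case over all shared regions, whose median log2 ratio was 0.13. The locus had 35 footprints in replicate 2 and 15 in replicate 3, more than at 93.5% and 98.9% of protein-coding loci. The Pgs1 promoter region held 5 and 3 of those footprints.

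A 12-letter consensus of CTCF, the factor that anchors chromatin loops and boundaries, was searched after the data had been seen. It matched the upstream Socs3 peak, where 1 footprint of replicate 2 and 2 of replicate 3 overlapped the match. Within the central 200 bp, the consensus was found in 9.83% of all stricter peaks of replicate 2 and 10.7% of those of replicate 3. The loci were searched over whole peaks, so the measures differ. Of all footprints, extended by 5 bp, 2.49% in replicate 2 and 2.08% in replicate 3 held it. A peak of 0.865 at the far end of the Il6st locus, over Il31ra, held the only other match among the 36 stricter peaks of replicate 2, with 1 footprint of replicate 2. The CTCF letters of the motif list, AGNNGGCGC, were in 4 of 36 replicate 2 peaks (11.1%), beside 13.1% of all. These peaks were at Cish, Il6ra, Il6st and Socs3. In replicate 3 they were in 1 of 13 (7.69%), beside 17.1%. The window around the 12-letter Socs3 match is chr11:117970065-117970094. The window around a STAT match in the weaker peak, 57 bp upstream of the basic start site, is chr11:117969229-117969257. All 29 bases of the STAT window are untranslated exon in the full transcript sets. Both windows are on the minus strand, with the matched letters in capitals, and the STAT match overlapped no footprint.
Socs3 CTCF match: ctccagcgcGCCCTCTGGTGGactcggggg
Socs3 STAT match: ggccgggcagTTCCAGGAAtcggggggcg

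Socs2, on chromosome 10 (minus strand, chr10:95385362-95417180), was the least open of the 6. Its 3 stricter peaks in replicate 2 measured 0.537, 0.515 and 0.448, at percentiles 9.13, 7.63 and 3.52 of that list, and its promoter ranked at percentile 2.20 of promoter peaks. Replicate 3 listed no peak and no footprint anywhere in the 81.8 kb of the locus, and no FDR of 0.05 or less at those 3 peaks. Peaks of this strength were rarely found in replicate 3: of all replicate 2 peaks with a signal below 1, 6.77% were found in its stricter list. Replicate 2 placed 11 footprints in the locus, 3 of them inside stricter peaks.

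Cish, on chromosome 9 (plus strand, chr9:107296026-107302784), had 7 stricter peaks in replicate 2 and none in replicate 3. Replicate 3 did list 3 of these sites in its permissive list, all upstream. They were the promoter of the neighbour Mapkapk3, which encodes a kinase activated by p38 (3.29 in replicate 2 and 3.88 in replicate 3), a site 4.9 kb upstream (2.29 and 3.34) and a site 1.6 kb upstream (1.59 and 3.25). The last had a ratio at percentile 96.9 of all regions shared by the permissive lists, and counting intervals of 1.38 to 1.82 and 2.54 to 4.10. The FDR of replicate 3 at these sites was 0.0063, 0.0288 and 0.0357, and their signals exceeded the median of 3.07 over the stricter peaks of that library. The peaks at the start sites of Cish itself, of 1.27 and 1.34, had no listed position in replicate 3. The remaining peaks of replicate 2 without a counterpart were one of 2.00 at 16.4 kb downstream and one of 1.43 in an intron of Mapkapk3. The peak of 1.34 holds a pair of adjacent STAT matches, the arrangement for which the Cish promoter is known as a STAT5 target, and is shown for that reason. The window is chr9:107296654-107296683 on the plus strand, with the matches in capitals. Neither match overlapped a footprint of either library.
Cish STAT matches: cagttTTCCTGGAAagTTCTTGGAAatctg

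**Figure D2:**
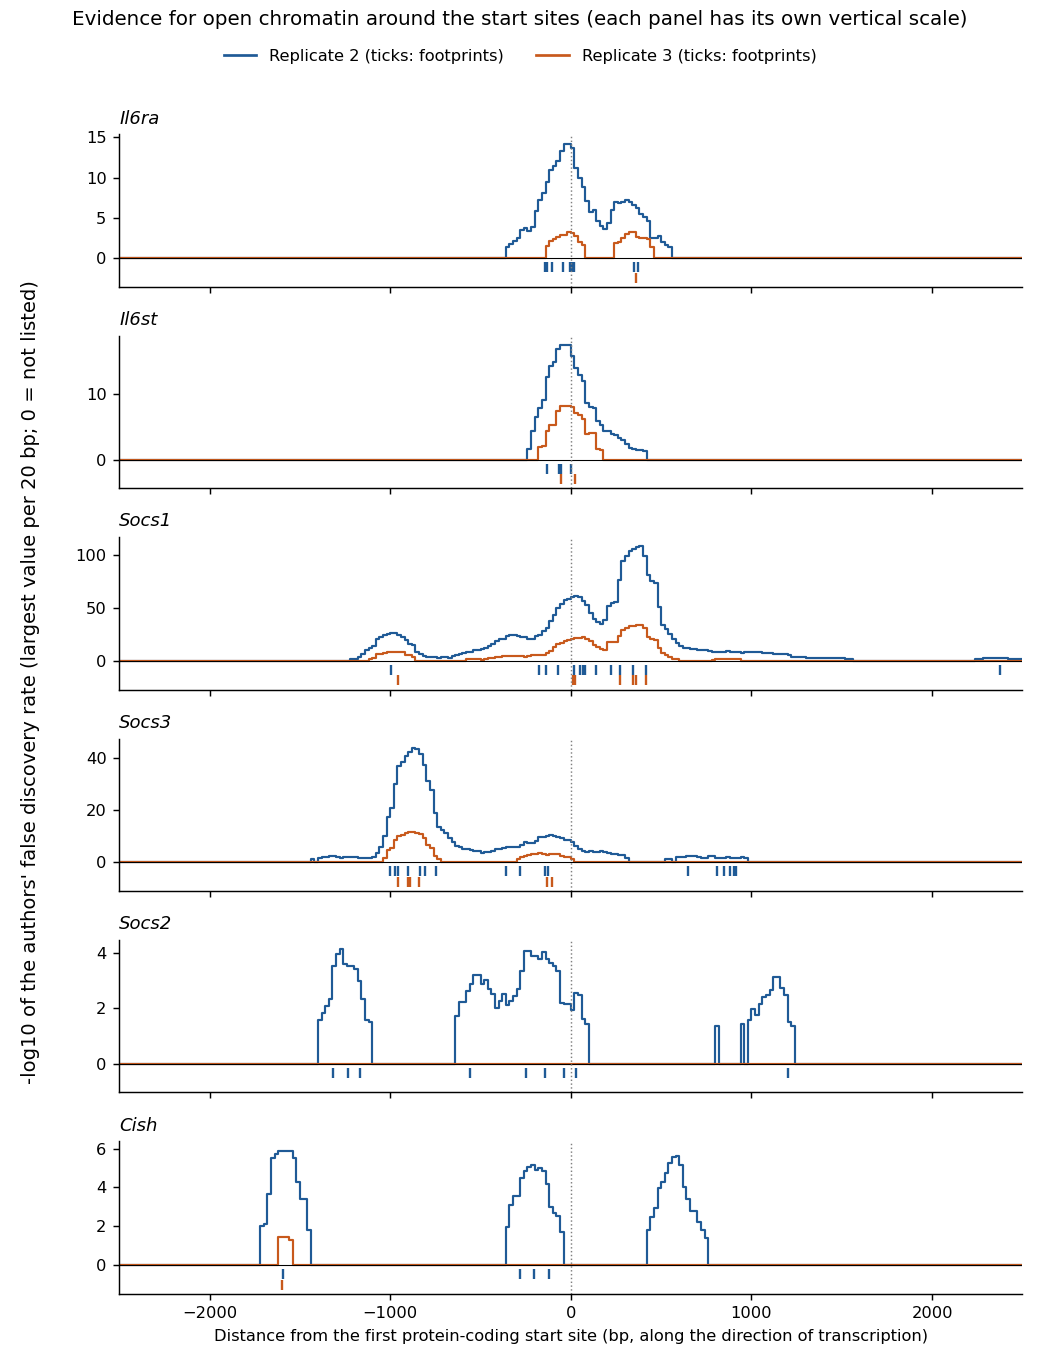
Largest -log10 of the authors' FDR per 20 bp (vertical axis, own scale in each panel, 0 where no value is listed) against distance from the first protein-coding start site (bp, horizontal axis), for replicate 2 (blue) and replicate 3 (orange), with ticks at footprints. Both libraries peak together at Il6st, at the Socs1 first intron and at the Socs3 upstream site, replicate 3 is low at Il6ra and absent from the Socs2 and Cish start sites.

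Between the libraries, the log2 ratio of replicate 3 to replicate 2 signal had a median of 0.13 over 15930 regions in both stricter lists, with a 5th to 95th percentile of -0.49 to 0.83. All 13 regions of the 6 loci lay within those bounds. The lowest ratio was -0.46, at the Socs1 site 13.2 kb downstream, and the highest 0.69, at the Socs3 start site. Both Il6ra regions were below the median, at -0.23 and -0.31. Over the 22472 regions shared by the permissive lists, which are not limited to peaks outside the stricter lists, the 95th percentile was 0.92, and the Cish site 1.6 kb upstream, at 1.03, was above it.

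**Figure D3:**
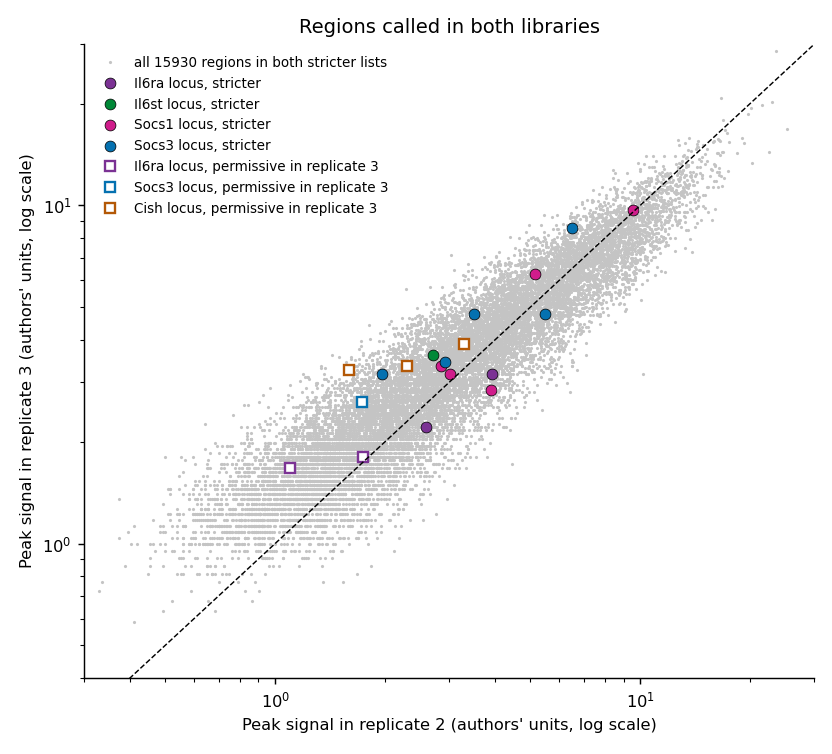
Peak signal in replicate 3 against replicate 2 (authors' units, both axes logarithmic, dashed line at equality) for all 15930 regions in both stricter lists (grey), regions of the 6 loci in both stricter lists (filled circles) and those in the permissive list of replicate 3 alone (open squares). The Socs1 first intron (9.55 and 9.67) and the Socs3 upstream site (6.51 and 8.58) lie highest among the circles. Among the circles and squares, the Cish site at 1.59 and 3.25 lies farthest above the line.

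Recovery of replicate 2 peaks in replicate 3 followed signal. Of the 36 stricter peaks of replicate 2 in the 6 loci, 13 (36.1%, Wilson 95% interval 22.5% to 52.4%) were found in the stricter list of replicate 3, beside 42.5% of all its peaks. In the permissive list 19 (52.8%, 37.0% to 68.0%) were found, beside 58.7%. All 4 peaks with a signal of 4 or more were found in the stricter list, beside 98.0% of all such peaks, and they lay at Socs1, Socs3 and Pgs1. From 2 to below 4, 8 of 11 were found, beside 80.8%. From 1 to below 2, 1 of 13 was found (7.69%, 1.37% to 33.3%), beside 38.9%; that 1 is the Socs3 start site, and the promoters of Il6ra and Cish are in this band. Below 1, none of 8 was found, beside 6.77%. Peaks of 1 locus are not independent of each other, and the intervals take no account of that.

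The 6 loci held 137 footprints in replicate 2 and 32 in replicate 3, and 23 of those 32 overlapped a replicate 2 footprint. The share of all replicate 3 footprints that do so was not computed, so this overlap cannot be called high or low. Within stricter peaks there were 12.9 footprints per kb of peak in replicate 2, beside 13.4 over the whole list, and 10.6 in replicate 3, beside 8.07. By locus, replicate 2 had 35 at Socs3, 28 at Socs1, 27 at Il6ra, 19 at Cish, 17 at Il6st and 11 at Socs2. Replicate 3 had 15 at Socs3, 10 at Socs1, 3 at Il6ra, 2 at Il6st, 2 at Cish and none at Socs2. Socs1 and Socs3 thus held 25 of the 32 footprints of replicate 3.

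The STAT motif TTCNNNGAA, searched on both strands, had 9 matches in the stricter replicate 2 peaks, 3 each at Cish, Socs1 and Socs3. There was none in the peaks of Il6ra, Il6st or Socs2. Within the central 200 bp, 5 of 36 peaks held it (13.9%), beside 4.90% of all 38223 replicate 2 peaks, and 1 of 13 in replicate 3 (7.69%), beside 4.11%. Footprints rarely covered it: 1 of 137 in replicate 2 (0.73%), beside 0.30% of all footprints, and none of 32 in replicate 3, beside 0.227%. The 1 footprint is chr16:10772338-10772344 in the Socs1 downstream peak, and it overlaps the match in part. Of the promoters (250 bases before to 50 after the start) in the RefSeq GRCm38.p6 table, 8.30% of 32851 held the motif. Among members it was in those of Cish and Socs3 and not in those of Il6ra, Il6st and Socs1. Socs2 was not matched in that table. A match is a run of letters and not a bound site, and the reference carries the letters of only 1 parent strain of the cross.

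The G and C content of members' promoters ran from 53.3% at Cish to 73.3% at Socs3 among the 5 matched. These stood at percentiles 52.5 and 94.9 of the 32851 promoters. Il6st had 68.3%, Il6ra 66.0% and Socs1 63.3%. In these windows Socs1, with the strongest promoter peak of the members, had less G and C than Il6ra, whose peak lay below the median. The Socs1 window does not reach that strongest peak, in the first intron, whose central 200 bp had 77.5%. The Il6ra peak across the start site had 65.5% in its central 200 bp, so the order was reversed there. The KLF/SP letters GGGCGG were in 4 of the 5 matched promoters and not in that of Il6ra, beside 35.7% of all promoters.

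The wider pathway was read at promoters from 7 lists of 67 genes, and 36 (53.7%) had a stricter peak in both libraries, beside the 40.8% of all genes given above. The kinases, factors and brakes inside the cell come first. Among JAK kinases and STAT factors 9 of 11 had one, led by Stat3, the main transducer of interleukin-6 (10.1 in replicate 2 and 9.80 in replicate 3), Jak1 (6.27 and 6.32) and Stat5a (5.21 and 4.74). Among the other SOCS genes and the ubiquitin ligase that SOCS proteins recruit, 8 of 9 had one, led by Cul5, the ligase scaffold (6.89 and 7.54), its partner Rnf7 (6.39 and 7.77) and Socs4 (6.48 and 7.63), while Asb2 had none in any list. Of other brakes on the pathway 7 of 9 had one, led by Ptpn1, a phosphatase (10.02 and 9.53), and Pias4 (12.9 and 8.63) and Pias1 (8.27 and 9.94), which bind activated STATs. The Socs1 promoter, at 9.55 and 9.67, was in the range of Stat3 and Ptpn1.

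Genes for ligands and receptors were read in the same way. None of 9 ligand genes had a promoter peak in both stricter lists. Clcf1 had a stricter peak in replicate 2 and a permissive one in replicate 3 (2.92 and 2.39), Osm had a stricter peak in replicate 2 alone (1.61), and Cntf and Ebi3 had none in any list. Of 11 receptors that pair with or resemble gp130, 3 had one in both stricter lists: Il27ra (2.90 and 2.53), which pairs with gp130 for interleukin-27, Cntfr (1.45 and 2.67) and Il12rb2 (0.642 and 1.04). Il6st itself measured 2.70 and 3.61. Csf3r and Il11ra1 had none in any list. The proteases that shed the interleukin-6 receptor, Adam10 (7.498 and 7.86) and Adam17 (6.21 and 6.64), had peaks above the median in both libraries. Itch, a ubiquitin ligase, had one below the median in both (3.55 and 3.93). Of 14 STAT target genes 6 had one, led by Bcl2l1, a survival factor (9.53 and 8.31), Irf1 (8.08 and 7.81) and Junb (7.78 and 6.87), both transcription factors. In replicate 2, Socs1 (9.55) was level with Bcl2l1, and Socs3 (6.51) and Cish (1.34) were below those 3 targets. In replicate 3, Socs1 (9.67) and Socs3 (8.58) were above all of the targets, and Cish had no promoter peak.

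**Figure D4:**
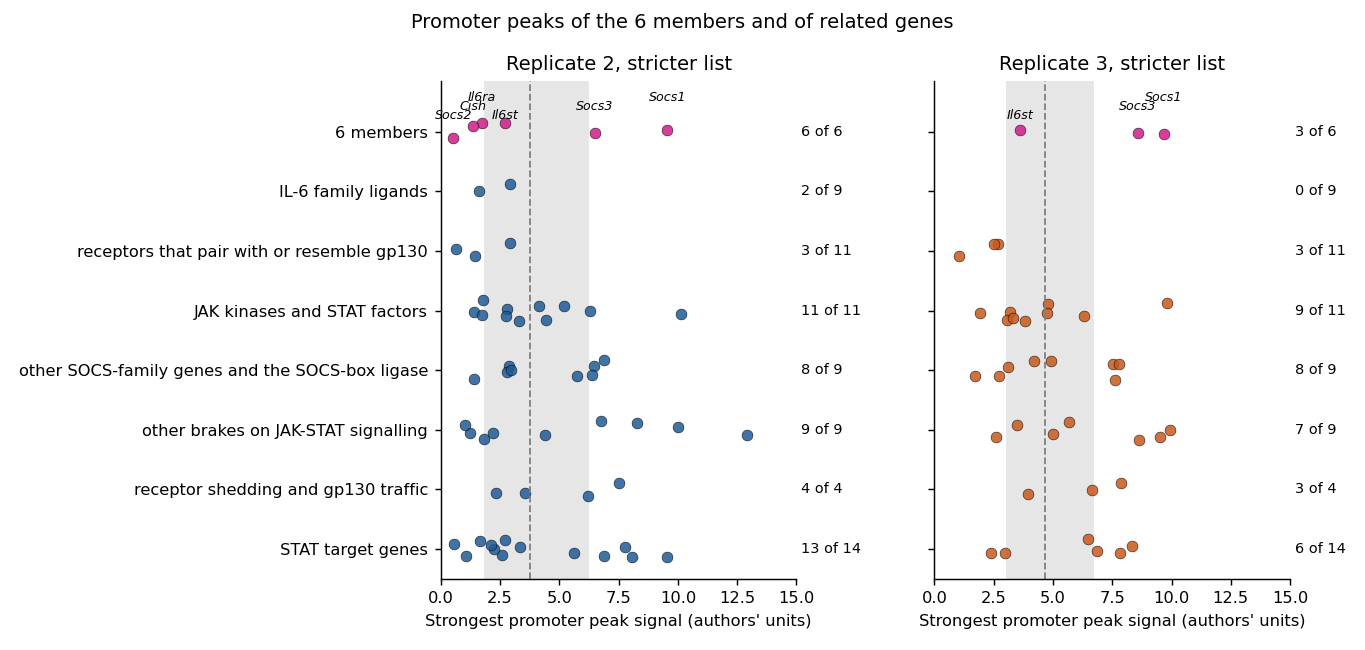
Signal of the strongest promoter peak (authors' units, horizontal axis) of each gene with one in the stricter list, by gene list (rows), in replicate 2 (left) and replicate 3 (right), with the number of genes that have a peak at the right edge. The grey band and dashed line are the quartiles and median of all genes with a promoter peak, Socs1 and Socs3 lie above the band in both libraries, and the ligand row is empty in replicate 3.

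The genes nearest to the members in the pair of promoter signals, by distance on the log2 scale over 2 libraries, were Caml for Il6st (2.69 and 3.61), Cdc27 for Socs1 (9.60 and 9.67) and Inpp5e for Socs3 (6.48 and 8.58). With 2 values per gene such a match is a description only.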

How the data were processed

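DNase-seq peaks, footprints and false discovery rates were deposited for 2 libraries on mm10, called separately from the alignments of each, per the deposited notes. The sources used here do not name the aligner, the callers or the scaling of the signal. Per peak, the authors' deposited signal is 1 value. The authors' deposited q-values are false discovery rates per stretch of positions and run up to 0.05. All 25650 signals below 2 in the stricter list of replicate 2, and all 4539 in that of replicate 3, fell within 0.05 of a step from a whole number of steps, and Poisson intervals were computed from steps. Footprint lists hold 1 constant, so only intervals were used.

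Genes and start sites came from the GENCODE M21 basic annotation, and sequences from RefSeq GRCm38.p6, where 5 of 6 promoters matched. Regions shared by libraries overlapped by 1 bp or more. Footprints were extended by 5 bp for motif searches. Overlap and motif search routines were tested on simulated data, and the Poisson and Wilson intervals were not. The members, gene lists, motifs and alternatives were chosen with earlier results of these data known. The text names the members, genes whose promoters hold their peaks, the shared regions, up to 3 peaks per locus absent from both lists of replicate 3, and from each list up to 3 genes of highest promoter percentile and up to 2, alphabetically, with no peak. A few other genes are named as markers. Tools were numpy 2.4.6, scipy 1.17.1, pandas 2.3.3 and matplotlib 3.10.9 under Python 3.11.15.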

Additional observations from a re-analysis of the deposited data

How the results depend on the processing

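No paired analysis was possible because there is 1 group. The 13 shared regions became 7 in the gene body alone, and the library left out set the count between 13 and 36, since each list then stands alone. Members with a promoter peak ranged from 3 to 6 in the same way. The 137 footprints of replicate 2 became 223 with 50 kb either side and 59 in the gene body, and the 32 of replicate 3 became 13 in the gene body, as the locus was longer or shorter. The share of replicate 2 peaks found in replicate 3 was 61.9% when each library kept its 17061 strongest peaks, against 36.1%, as fewer weak peaks were counted. The 1 footprint with a STAT motif became 0 in the gene body and 0 without extension, and ranged from 0 to 1 with a library left out. The other alternatives for these results, among them 10 kb flanks, permissive lists, 50% overlap and promoter windows of 500 bp or 2000 bp, kept counts within 1.5 times and the share within its interval. Replicate 2 peaks of low signal were seldom found in replicate 3. Whether depth accounts for this was not tested.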
